A study of Bos taurus with 7 samples.

Results

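The genes described here carry long-chain fatty acids toward mitochondrial oxidation or build and store lipid, and they were followed in bovine blastocysts after energy metabolism had been inhibited in the oocyte. They were chosen by name for their place in the pathway, at a time when earlier results of these data were known. By Ensembl gene ID, 7 were specified. Of these, 6 were analysed, among the 27607 genes of the count table: CPT1A (ENSBTAG00000021999), ACSL1 (ENSBTAG00000018986), ACACA (ENSBTAG00000017567), FASN (ENSBTAG00000015980), SREBF1 (ENSBTAG00000007884) and DGAT1 (ENSBTAG00000026356). SCD, the stearoyl-CoA desaturase gene, was not analysed here. The names came with the IDs in that selection, and no table used here pairs them.

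The libraries were made from total RNA of Bos taurus embryos at the blastocyst stage, a hollow embryo whose outer trophectoderm surrounds an inner cell mass. There were 2 control libraries, 3 from oocytes matured in vitro with etomoxir, standing for inhibition of fatty acid metabolism, and 2 from oocytes matured with IO+DHEA, standing for inhibition of glucose metabolism. DHEA usually means dehydroepiandrosterone. The sources used here do not give the meaning of IO, the doses, the strain or the number of embryos per library. The inhibitors acted during maturation, so every level below was measured in embryos that had developed after the treated stage. The labels do not say if replicates were separate cultures or animals, so each p-value reflects only the spread among these samples, possibly a technical one. The identity of the embryos was not checked against lineage markers, since the IDs could not be paired with symbols.

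A long-chain fatty acid is first joined to coenzyme A by an acyl-CoA synthetase such as ACSL1, and can then be oxidised or built into lipid. CPT1A, a carnitine palmitoyltransferase of the outer mitochondrial membrane, commits it to oxidation, and its enzyme family is the target of etomoxir. In the opposite direction, acetyl-CoA carboxylase (ACACA) makes malonyl-CoA, which feeds the fatty acid synthase FASN and also inhibits carnitine palmitoyltransferase. SREBF1 encodes a transcription factor that drives genes of fatty acid synthesis, and DGAT1 catalyses the last step of triacylglycerol formation, by which fatty acids enter lipid droplets. Bovine oocytes and embryos are known for their large stores of lipid droplets.

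The libraries held 84739741 to 122061453 counts. All 6 genes passed the filter on low counts, as did 15134 genes in all. Levels are given as counts per 1000000 counts (CPM) after TMM scaling, a correction for differences in library composition. Gene lengths were not used, so levels are compared between libraries and not between genes. IO+DHEA library 1 stood apart: 12990 genes were detected there with 1 count or more, against 15056 to 15898 in the other libraries, and its TMM factor was 0.840 against 0.982 to 1.09. The distance between the IO+DHEA libraries had a median of 0.70 on the log2 scale over the 10706 tested genes that averaged 1 CPM or more, against 0.32 between the controls. In these bulk samples, fewer cells of a type and less RNA per cell cannot be told apart.

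CPT1A, the gatekeeper of mitochondrial fatty acid oxidation, was the most variable of the 6 genes within the etomoxir group. It stood at 4.45 and 3.52 CPM in control libraries 1 and 2. In etomoxir it stood at 9.62, 2.57 and 2.34 CPM in libraries 1, 2 and 3. Etomoxir library 1 thus lay above both controls, and the other etomoxir libraries lay below both. The range across etomoxir spanned 4.11-fold, which is 2.03 on the log2 scale. Of the same 10706 genes, 4.14% had a range at least as wide in that group, where the median range was 0.50. In IO+DHEA, CPT1A stood at 7.45 and 13.4 CPM, above both controls but overlapping with etomoxir through library 1 of the latter.

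By group mean ± SD the order was 10.4 ± 4.19 CPM over the 2 IO+DHEA libraries, 4.84 ± 4.14 over the 3 etomoxir libraries and 3.98 ± 0.66 over the 2 controls. The fitted log2 fold change of CPT1A was 0.28 ± 0.68 (SE) for etomoxir against control, with a 95% interval from -1.30 to 1.86. Without etomoxir library 1 it was -0.72, so that single library set its direction. For IO+DHEA against control it was 1.39 ± 0.75 (SE), a 2.61-fold difference with an edgeR adjusted p of 0.293. Leaving out IO+DHEA library 1 gave 1.78, and leaving out library 2 gave 0.90. No neighbours in this order differed beyond the spread of their libraries by edgeR. A 2-fold difference in either direction lies inside the interval of CPT1A for etomoxir against control.

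ACSL1, which activates fatty acids for both oxidation and storage, had its lowest values in IO+DHEA. The controls stood at 36.1 and 75.4 CPM, a 2.09-fold difference between replicates. The etomoxir libraries lay between the controls, at 52.7, 49.7 and 51.7 CPM. At 24.4 and 30.1 CPM, both IO+DHEA libraries lay below the range of the other 5. Of all genes, 28.4% were lower in IO+DHEA than in control without overlap, and 26.1% were higher in etomoxir than in IO+DHEA. The share below all 5 was not determined. Etomoxir varied little: 97.2% of the genes averaging 1 CPM or more had a range at least as wide in that group. The fitted log2 fold change was -1.03 ± 0.34 (SE) for IO+DHEA against control, with a 95% interval from -1.84 to -0.23 and an edgeR adjusted p of 0.115. It was -0.12 ± 0.31 (SE) for etomoxir against control, with an interval from -0.84 to 0.60. The spread between the controls touched this value directly, since it was -0.57 without control library 1 and 0.48 without control library 2. Those fits moved IO+DHEA against control as well, to -1.51 and -0.46.

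DGAT1, the triacylglycerol-forming enzyme, was likewise lowest in IO+DHEA, and it was the one gene of the 6 that passed the test in a comparison. It stood at 21.8 and 35.5 CPM in control and at 30.6, 30.8 and 34.0 CPM in etomoxir. Both IO+DHEA libraries stood at 14.2 and 14.0 CPM, below each of the other 5 libraries. Of all genes, 28.4% were lower in IO+DHEA than in control without overlap. After TMM scaling the IO+DHEA libraries agreed closely: 98.8% of the genes averaging 1 CPM or more differed at least as much between them. Before scaling, DGAT1 stood at 11.9 and 15.3 CPM in IO+DHEA libraries 1 and 2. Group means ± SD were 28.7 ± 9.66 CPM over the 2 controls, 31.8 ± 1.92 over the 3 etomoxir libraries and 14.1 ± 0.10 over the 2 IO+DHEA libraries. DGAT1 was 2.25-fold higher in etomoxir than in IO+DHEA, and 3 of 3 etomoxir libraries were higher, as for 26.1% of all genes. The log2 fold change was 1.17 ± 0.27 (SE, edgeR adjusted p = 0.0348). In that comparison edgeR called 11.7% of all genes, and 34.9% had an absolute log2 fold change at least as large. Against control, the log2 fold change of IO+DHEA was -1.02 ± 0.29 (SE), with an edgeR adjusted p of 0.0769 and a DESeq2 adjusted p of 0.0171. This value was -1.38 with control library 1 left out and -0.69 with control library 2 left out.

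That call on DGAT1 sat close to the threshold of 0.05. For etomoxir against IO+DHEA the edgeR adjusted p was 0.0572 with upper quartile factors, 0.200 with the replicate number as a block, and 0.0904, 0.0932 and 0.125 without etomoxir libraries 1, 2 and 3. It was 0.0575 without IO+DHEA library 1. The log2 fold change stayed between 0.94 and 1.22 over the 14 alternatives, and its adjusted p lay between 0.00149, by DESeq2, and 0.200.

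**Figure D1:**
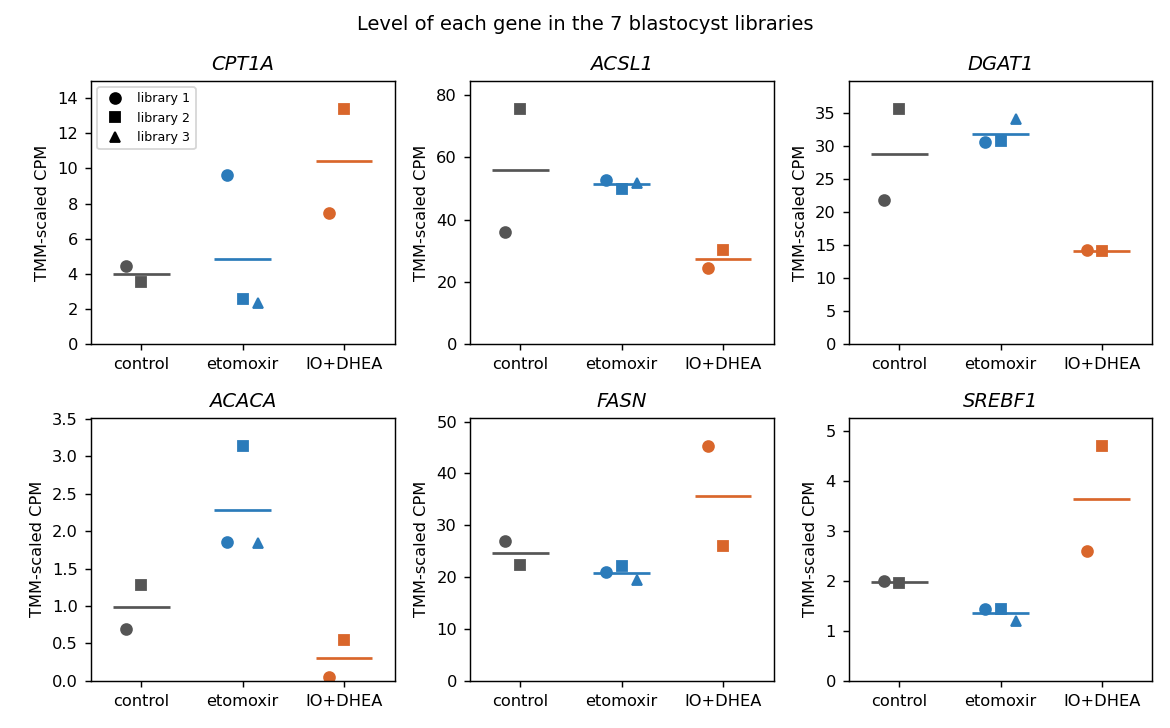
Level of each gene in TMM-scaled CPM (vertical axis, linear from 0) by treatment group. Points are libraries, with the symbol giving the library number, and horizontal bars are group means. DGAT1 and ACSL1 are lowest in both IO+DHEA libraries, SREBF1 is highest in both, and CPT1A in etomoxir runs from 2.34 to 9.62 CPM.

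ACACA, the enzyme that supplies malonyl-CoA, had the largest fold differences of the 6 genes between etomoxir and IO+DHEA, and low counts throughout. The table held 60 and 140 counts in the controls, which is 0.687 and 1.28 CPM. In etomoxir it held 242, 274 and 164 counts, or 1.85, 3.14 and 1.85 CPM. In IO+DHEA it held 4 counts in library 1 and 63 in library 2, or 0.0524 and 0.549 CPM. The 7 values did not overlap between any of the groups, with all 3 etomoxir libraries highest and both IO+DHEA libraries lowest. The share of all genes that separate the 3 groups was not determined, and shares for each comparison are given below. The 4 counts correspond to 0.0440 CPM before TMM scaling, with an exact 95% binomial interval from 0.0120 to 0.113 CPM that covers counting error only and takes each count as 1 fragment. Most low counts in this library were even, and if a fragment adds more than 1 count the interval is wider. Control library 1 and IO+DHEA library 2 were close before scaling, at 0.689 and 0.598 CPM. Their intervals of the same kind overlapped, from 0.526 to 0.887 and from 0.459 to 0.765 CPM.

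Group means ± SD of ACACA were 2.28 ± 0.74 CPM over the 3 etomoxir libraries, 0.985 ± 0.421 over the 2 controls and 0.301 ± 0.351 over the 2 IO+DHEA libraries. The log2 fold change of etomoxir over IO+DHEA was 2.90 ± 1.06 (SE), a 7.48-fold difference with a 95% interval from 0.44 to 5.37 and an edgeR adjusted p of 0.123. DESeq2 gave the same comparison an adjusted p of 0.0270. For etomoxir against control the log2 fold change was 1.21 ± 0.97 (SE), with an interval from -1.05 to 3.47, and for IO+DHEA against control it was -1.70 ± 1.06 (SE), with an interval from -4.16 to 0.77. IO+DHEA library 1 carried much of the size: without it, etomoxir exceeded IO+DHEA by 2.02 on the log2 scale and IO+DHEA against control was -0.81. Without IO+DHEA library 2 instead, the corresponding values were 5.41 and -4.20. Each of these fits kept 1 IO+DHEA library, so the spread in that group was not measured.

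Very low values were common in that library among genes of this level. Of the 2425 tested genes with a control mean of 0.5 to 2 CPM, 25.7% were at or under the level of ACACA in IO+DHEA library 1, and 29.7% were at or under it in IO+DHEA library 2. The lower number of genes detected in IO+DHEA library 1 moved with the ACACA value, and its part in the result was not tested.

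FASN, the enzyme that assembles palmitate, was highest in IO+DHEA library 1 and otherwise kept to a narrow band. It stood at 27.0 and 22.4 CPM in control, at 20.9, 22.1 and 19.4 CPM in etomoxir, and at 45.3 and 25.9 CPM in IO+DHEA. After TMM scaling, all 3 etomoxir libraries lay below both controls, by a small margin, while IO+DHEA library 2 lay between the controls. Before scaling, etomoxir libraries 1 and 2 (22.4 and 22.8 CPM) lay above control library 2 (22.0 CPM). IO+DHEA library 2 (28.2 CPM) then lay above both controls. The log2 fold change was -0.25 ± 0.28 (SE) for etomoxir against control, with a 95% interval from -0.91 to 0.41, and it was -0.12 with control library 1 left out and -0.40 with control library 2 left out. For IO+DHEA against control it was 0.53 ± 0.31 (SE), with an interval from -0.20 to 1.26 and an edgeR adjusted p of 0.335. Leaving out IO+DHEA library 1 gave 0.10, and leaving out library 2 gave 0.87. For etomoxir against IO+DHEA it was -0.77 ± 0.28 (SE), with an edgeR adjusted p of 0.122 and a DESeq2 adjusted p of 0.0334, and all 3 etomoxir libraries were lower. Here too the size moved with single libraries: the value was -0.34 with IO+DHEA library 1 left out and -1.12 with library 2 left out.

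SREBF1, the transcription factor upstream of fatty acid synthesis, separated the 3 groups without overlap. Of all genes, 25.3% were without overlap in etomoxir against control and 49.6% in IO+DHEA against control. In etomoxir against IO+DHEA the share was 44.4%, and the share over all 3 comparisons at once was not determined. The SREBF1 controls were nearly equal, at 1.99 and 1.96 CPM. All etomoxir libraries were lower, at 1.44, 1.44 and 1.19 CPM, and both IO+DHEA libraries were higher, at 2.60 and 4.71 CPM. Before scaling the groups also stayed apart, but IO+DHEA library 1 was close to control library 1, at 2.18 and 1.998 CPM. Their exact 95% binomial intervals overlapped, from 1.89 to 2.51 and from 1.71 to 2.32 CPM. TMM scaling, with a factor of 0.840 for IO+DHEA library 1, widened that gap. The order of SREBF1 was the reverse of that of ACACA, an enzyme of the pathway it regulates. Group means ± SD were 3.65 ± 1.49 CPM over the 2 IO+DHEA libraries, 1.98 ± 0.02 over the 2 controls and 1.36 ± 0.14 over the 3 etomoxir libraries. Etomoxir against IO+DHEA had a log2 fold change of -1.43 ± 0.50 (SE), with a 95% interval from -2.59 to -0.27, an edgeR adjusted p of 0.110 and a DESeq2 adjusted p of 0.0219. With IO+DHEA library 1 left out the same value was -1.82, and with library 2 left out it was -0.93. Against control, etomoxir was at -0.54 ± 0.50 (SE) and IO+DHEA at 0.88 ± 0.56 (SE) on the log2 scale, and neither passed the edgeR test. The latter was 1.28 when IO+DHEA library 1 was left out and 0.39 when library 2 was.

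Etomoxir against control asks whether inhibiting fatty acid metabolism in the oocyte left a mark on these transcripts of the blastocyst. None of the 6 genes was called by edgeR at a Benjamini-Hochberg adjusted p under 0.05, where 0.00661% of all tested genes were. DESeq2 called 0 of the 6, against 0.457% of all genes, and 0 of the 6 had an unadjusted edgeR p under 0.05, against 3.4% of all. The fitted values were above 0 for CPT1A, ACACA and DGAT1 and below 0 for ACSL1, FASN and SREBF1, with a median of 0.02 for the 6 genes and 0.02 for all genes tested. The etomoxir and control libraries were without overlap for 3 of the 6 genes, against 25.3% of all genes. ACACA was higher in etomoxir, as were 13.2% of all genes in this way, and FASN and SREBF1 were lower, as were 12.2%. For FASN this held only after TMM scaling. The median absolute log2 fold change was 0.27 for the 6 genes and 0.32 for all.

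IO+DHEA against control asks the same of inhibiting glucose metabolism. Again edgeR called none of the 6 genes, where it called 6.94% of all genes. That share itself moved with single libraries, from 1050 of 15134 genes to 47 of 16204 with control library 2 left out and 3707 of 16048 with IO+DHEA library 2 left out, and it was 0 in a fit of the compared groups alone or with the replicate block. ACSL1 and DGAT1 had an unadjusted edgeR p under 0.05, as did 25.1% of all genes, and DESeq2 called DGAT1, against 19.4% of all genes. The libraries were without overlap for 5 of the 6 genes, against 49.6% of all. CPT1A and SREBF1 were higher, as were 21.2% of all genes in this way, and ACSL1, ACACA and DGAT1 were lower, as were 28.4%. FASN overlapped. The median absolute log2 fold change was 1.03 for the 6 genes and 0.82 for all.

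**Figure D2:**
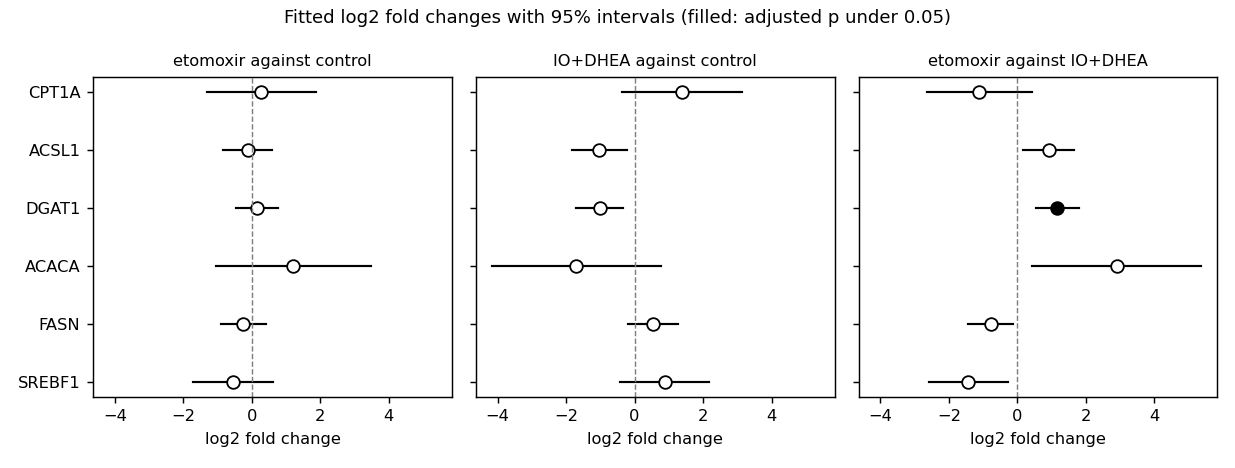
Fitted log2 fold change (horizontal axis) of each gene in the 3 comparisons, with lines for 95% intervals and filled points for an edgeR adjusted p under 0.05. The one filled point is DGAT1 in etomoxir against IO+DHEA, at 1.17, and every interval in etomoxir against control includes 0.

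Etomoxir against IO+DHEA sets the 2 treatments against each other. It shares its IO+DHEA libraries with the comparison above and its etomoxir libraries with the first. DGAT1, higher in etomoxir, was the 1 of 6 genes called by edgeR, where 11.7% of all genes were called. The latter, 1769 of 15134 genes, became 35 of 14987 with etomoxir library 3 left out, 4530 of 16048 with IO+DHEA library 2 left out and 0 with the replicate block. An unadjusted edgeR p under 0.05 was found for 5 of the 6 genes, against 28.5% of all, and the exception was CPT1A. DESeq2 called 4 of the 6, against 23% of all genes: DGAT1 and ACACA were higher in etomoxir, and FASN and SREBF1 were lower. The libraries were without overlap for 5 of the 6 genes, against 44.4% of all. ACSL1, ACACA and DGAT1 were higher in etomoxir, as were 26.1% of all genes in this way, and FASN and SREBF1 were lower, as were 18.3%. The median absolute log2 fold change was 1.14 for the 6 genes and 0.82 for all.

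Ratios of counts within a library do not depend on how libraries are scaled. They are given as descriptions with no test, since the pairs were picked after the levels were seen. They restate the counts behind those levels, and the share of other gene pairs that separate the groups was not determined. ACSL1 and DGAT1 varied least in proportion among the pairs given here, although replicates of a group still differed. The ratio of ACSL1 to DGAT1 counts was 1.65 and 2.12 in control, 1.72, 1.61 and 1.52 in etomoxir. In IO+DHEA it was 1.72 and 2.14. Over all 7 libraries the groups overlapped in this ratio, although both genes were lowest in IO+DHEA.

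FASN varied more in its proportion to DGAT1 and to ACSL1. Its ratio to DGAT1 was 1.24 and 0.631 in control, 0.685, 0.720 and 0.570 in etomoxir. In IO+DHEA it was 3.19 and 1.85, and both values exceeded those of the other 5 libraries. The same held for FASN against ACSL1, at 1.86 and 0.863 in IO+DHEA against 0.749 and 0.297 in control and 0.375 to 0.446 in etomoxir.

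The enzymes of consecutive steps in synthesis, ACACA and FASN, did not keep a fixed proportion. FASN counts per ACACA count were 39.3 and 17.5 in control, 11.3, 7.06 and 10.5 in etomoxir. In IO+DHEA they were 864 and 47.3. The 3 groups did not overlap, and the value of 864 rests on the 4 ACACA counts of IO+DHEA library 1. CPT1A per ACSL1 was also highest in IO+DHEA, at 0.305 and 0.445, against 0.123 and 0.0467 in control and 0.183, 0.0517 and 0.0453 in etomoxir. CPT1A per FASN, by contrast, overlapped between all groups, at 0.165 and 0.157 in control, 0.459, 0.116 and 0.121 in etomoxir. The IO+DHEA libraries had 0.164 and 0.515.

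**Figure D3:**
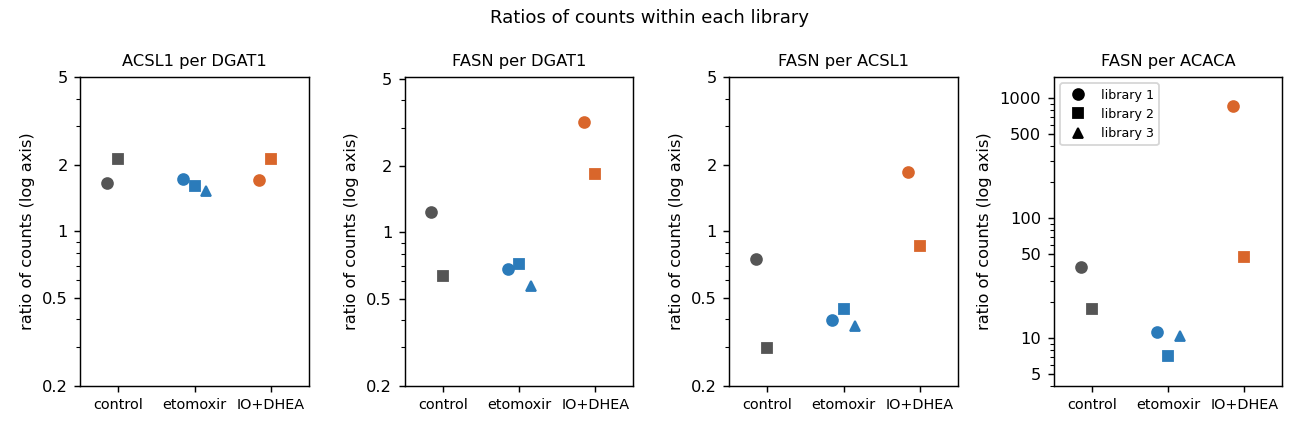
Ratio of the counts of 2 genes within each library (vertical axis, logarithmic, with a wider range for FASN per ACACA) by treatment group, with points for libraries. ACSL1 per DGAT1 stays between 1.52 and 2.14, while FASN per DGAT1 is 1.85 and 3.19 in IO+DHEA and at most 1.24 elsewhere.

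How alike the patterns were was measured as the root mean square difference of log2 CPM over the 7 libraries, after centring each gene on its own mean. The closest pair among the 6 genes was ACSL1 and DGAT1, at 0.18. Seen from ACSL1, 0.197% of the 7609 other genes averaging 5 CPM or more were at least as close, and seen from DGAT1 0.644% were. FASN and SREBF1 were 0.52 apart, with 42.2% of such genes at least as close seen from FASN and 16.7% seen from SREBF1. CPT1A and SREBF1 were 0.62 apart, with 2.85% at least as close seen from CPT1A and 28.9% seen from SREBF1. ACACA was at least 1.27 from each of the others, its nearest being DGAT1. The gene most like CPT1A was ENSBTAG00000006025, at 0.32. It stood at 11.1 and 10.6 CPM in control, 14.6, 6.40 and 6.90 CPM in etomoxir. The IO+DHEA libraries had 21.9 and 30.7 CPM. Etomoxir library 1 was above the other etomoxir libraries, which follows from picking the gene for its likeness to CPT1A in these libraries. These distances describe 7 libraries in 3 treatment groups, and no function is read from them.

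**Figure D4:**
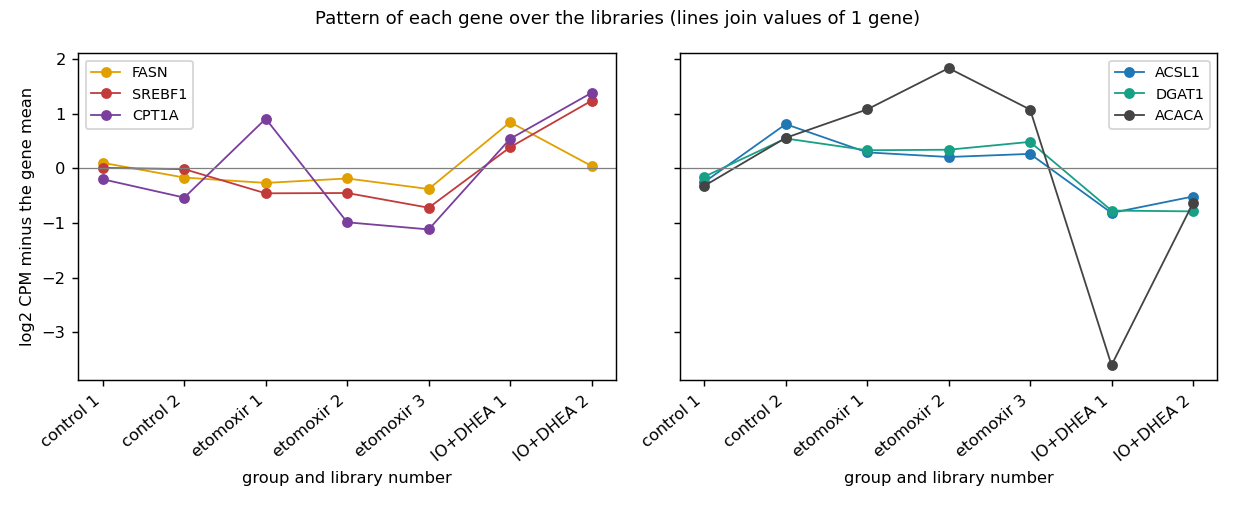
Log2 CPM of each gene minus its mean over the 7 libraries (vertical axis), by library. Lines only join the values of 1 gene, since libraries have no order. ACSL1 and DGAT1 nearly coincide, ACACA is lowest in IO+DHEA library 1, and CPT1A is high in etomoxir library 1 and in both IO+DHEA libraries.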

How the data were processed

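RNA sequencing of bovine blastocysts gave 7 libraries in 3 groups, taken from the treatment label. Per the labels' protocols, a SMARTer ultra-low input kit and a Nextera XT kit were used, and neither is known to mark strand. The authors deposited raw counts by Ensembl gene, without normalization. The submitters' processing notes name cutadapt 1.18, STAR 2.7.9a, featureCounts 2.0.1 and the ARS-UCD1.2 build. How multi-mapping reads and strand were handled is not given in these sources, so reads shared with near-identical or overlapping genes are uncertain. Among counts of 1 to 20, 67.7% to 78.3% were even, so 1 count may not be 1 fragment.

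Counts were analysed with edgeR 4.0.16 in R 4.3.3: filterByExpr (minimum count 10, minimum total 15), TMM scaling and 1 quasi-likelihood fit of all 7 libraries by group, leaving 4 residual degrees of freedom. This assumes 1 spread per gene for all groups. Tests were two-sided, with Benjamini-Hochberg adjustment over all 15134 genes and a threshold of 0.05. Standard errors were derived from the fold change and the test statistic, and 95% intervals from these. Log2 CPM used a prior count of 2. The fit was tested on simulated data. DESeq2 1.42.0 was an alternative, beside those given in the closing section. Replicates differed by far more than sampling noise. The chi-square per degree of freedom was 133 to 218 within control and etomoxir and 851 between the IO+DHEA libraries. The edgeR p-values and intervals that involve IO+DHEA thus rest on a spread shared with less variable groups.

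The genes, lists and tests were chosen with earlier results of these data known. All 6 genes are named, and by rule the gene most like CPT1A. Lists of further oxidation, synthesis, sterol and lineage genes were not analysed here, since none of the IDs could be paired with symbols. Figures were drawn with matplotlib 3.10.9.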

Additional observations from a re-analysis of the deposited data

How the results depend on the processing

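Of the 252 values of single genes under the 14 alternatives, 234 kept their direction and their side of the threshold, 9 newly passed it and 6, all of DGAT1, no longer did. Directions turned for 3 values, all in etomoxir against control and all far from the threshold: DGAT1 was at -0.18 without control library 1, ACSL1 at 0.48 without control library 2 and CPT1A at -0.72 without etomoxir library 1. Over the fits that left out 1 library each, DGAT1 ran from -0.18 to 0.52, ACSL1 from -0.57 to 0.48 and CPT1A from -0.72 to 0.61. The number of the 6 genes called in IO+DHEA against control was 0, or 1 with DESeq2, and 0 to 2 over fits that left out 1 library each. In etomoxir against IO+DHEA it was 1, or 0 with upper quartile factors and 4 with DESeq2, and 0 to 3 over fits that left out 1 library. In etomoxir against control it was 0 in each of the alternatives run. With the replicate number as a block it was 0 in all 3 comparisons, and the block leaves 2 residual degrees of freedom. Same-numbered libraries of different groups had deviations from the group mean that correlated at -0.24 to 0.14 across genes. Deviations within a group of 2 libraries are mirror images, so these values cannot tell whether numbers mark a shared batch. The labels do not say that they do. Counts divided by 2 and rounded, an alternative added after the data were seen, changed no call. With upper quartile factors the median over all genes (log2) was 0.19 in IO+DHEA against control and -0.14 in etomoxir against IO+DHEA. Where a call changed, the cause was not tested. With 2 or 3 libraries a group, the intervals of ACACA and CPT1A span several-fold differences. A fit without a control or IO+DHEA library keeps 1 library in that group, so its spread comes from the other groups.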
